A study of Mus musculus with 2 samples.

Results

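The ATF4 amino acid response is the set of genes that cells switch on when amino acids run short or when translation initiation is restrained by stress. The rows of 10 genes, listed by name (Atf4, Asns, Trib3, Ddit3, Atf5, Psat1, Phgdh, Shmt2, Mthfd2 and Slc7a11), were taken from both deposited tables, which hold 14366 gene symbols. All 10 were found in each. They were followed across all cells of a study of hematopoietic stem cells (HSC) and an iron chelator. The HSC came from the pooled bone marrow of 8 wildtype C57/B6 mice of 6 to 8 weeks and were sorted by lineage markers (absent), c-Kit, Sca-1 and CD150 (present) and CD48 (absent). Cells of both groups were kept for 48 h in Myelocult M5300 medium with the antimicrobial Primocin, 100 ng/ml stem cell factor and 50 ng/ml thrombopoietin. The DFO group received 10 µM deferoxamine, an iron-binding drug, and the vehicle group received sterile water. Each group is 1 library from 1 culture, so differences lack any replicate check, no test was run and no p-value is given.

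ATF4 is a transcription factor whose protein is controlled mainly at translation: when the initiation factor eIF2 is phosphorylated by stress kinases, upstream reading frames in the Atf4 transcript are bypassed and more ATF4 is made. The transcript level of Atf4 is therefore a poor readout of its activity, and its target genes are used instead. Targets of the metabolic arm make serine, glycine, one-carbon units and asparagine and import cystine. Targets of the stress arm include the pro-death factor CHOP, encoded by Ddit3, and the pseudokinase Trib3, which feeds back on ATF4. One of the eIF2 kinases, encoded by Eif2ak1, is inhibited by heme, which ties this pathway to iron in blood cells.

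ATF4 binds CARE sites (C/EBP-ATF response elements) as a dimer, and these were looked for as the letters TGATGNAA on either strand. The search covered windows from 250 bases before to 50 bases after each RefSeq start (GRCm38.p6, the same assembly as mm10, which the submitters' processing notes name). All 10 members matched a window by symbol, Atf5 and Psat1 with 2 windows each. For Slc7a11 and Mthfd2, with 1 window each, the start used lies inside the gene span given below. The 5′ ends of those 2 spans were not searched. The motif was found for 3 of the 10 members (Asns, Slc7a11 and Trib3), against 3.97% of all 32851 windows. Upstream stretches are shown for Asns and Slc7a11, which hold the motif before their start, and for Mthfd2 and Psat1, the members with the highest differences between the cultures, which do not hold it there. They run 5′ to 3′ on the gene's strand, here the minus strand for all of them, and capitals mark the motif on either strand. They lie at chr6:7693214-7693243, chr3:50443615-50443713, chr6:83317607-83317704 and chr19:15925060-15925159, in this order.
Asns: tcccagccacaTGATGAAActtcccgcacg
Slc7a11: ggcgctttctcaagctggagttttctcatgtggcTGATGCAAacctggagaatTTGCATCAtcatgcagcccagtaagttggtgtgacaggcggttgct
Mthfd2: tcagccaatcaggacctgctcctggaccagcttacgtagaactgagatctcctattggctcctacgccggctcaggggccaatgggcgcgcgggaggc
Psat1: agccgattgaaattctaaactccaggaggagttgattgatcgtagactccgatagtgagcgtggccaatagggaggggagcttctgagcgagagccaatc
The Asns match begins 23 bases before the RefSeq start, in a stretch that GENCODE M21 annotates as exon, so only 30 bases are given. The Slc7a11 pair begins 66 and 47 bases before the start and faces opposite directions. The Trib3 match (TTACATCA on the gene's strand) begins at base 15 of the transcript. The E-box CACGTG, the letters bound by MYC and its partners, was in no member window and in 7.15% of all windows. A match is a description of the letters in these windows, and no match says nothing about binding elsewhere.

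The tables held 8708 vehicle and 9852 DFO cells, which resolved into 260938938 and 284326017 molecules counted by unique molecular identifiers (UMIs), with medians of 27805.5 and 27114 UMIs per cell. Barcodes shared by both libraries numbered 24, or 0.276% and 0.244% of their cells. All 22 HSC markers on the list used were in the tables, 19 of them at 5 CPM or more, and none was at 0 in either library. Their summed level was 885 CPM for vehicle and 856 CPM for DFO. Megakaryocyte markers, 15 of 17 of which were in the tables with none at 0, summed to 2199 CPM for vehicle and 1184 CPM for DFO. Levels are CPM, molecules per 1000000 of the library. Each molecule is counted at its 3′ end, so the level does not grow with transcript length. Intervals are exact 95% Poisson intervals for levels and exact 95% Clopper-Pearson intervals for shares, and they cover counting error only.

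The 4 enzymes of serine and one-carbon synthesis were all higher in the DFO culture by 0.12 to 0.26 on the log2 scale defined below. Of the 4 stress genes Ddit3 was lower, Atf4 was slightly higher with an interval just above 0, and the intervals of Atf5 and Trib3 included 0. Summed over Phgdh, Psat1, Shmt2 and Mthfd2, the level was 522 CPM (519 to 525) for vehicle and 585 CPM (583 to 588) for DFO, which is 12.2% higher. Summed over Atf4, Ddit3, Trib3 and Atf5 it was 89.9 CPM (88.8 to 91.1) and 90.4 CPM (89.3 to 91.5), with overlapping intervals. Atf4 gave 19925 of the 23460 vehicle and 22187 of the 25702 DFO molecules of this stress sum. The stress sum, here and below, therefore follows mainly Atf4 and says little about Ddit3, Trib3 or Atf5. Phgdh gave 75105 of 136164 and 90570 of 166427 molecules of the serine and one-carbon sum. On the scale log2((DFO CPM + 1)/(vehicle CPM + 1)), used for every difference below, these sums differed by 0.17 (0.16 to 0.18) and 0.0078 (-0.018 to 0.033). A difference of 0.1 or more in favour of DFO was reached by 5 of the 10 members, against 19.2% of all 8886 genes whose mean over both libraries was at least 5 CPM. A difference of -0.1 or less was reached by 1 member, Ddit3, against 14% of those genes. At 0.25 the counts were 1 member higher (Mthfd2), against 1.4% of genes, and 1 lower (Ddit3), against 2.58%. When libraries were scaled by the median of ratios, 14% of genes were higher and 17.1% lower by 0.1, and 4 members were higher. The mean of 5 CPM was passed by 7 members. Atf5, Trib3 and Slc7a11 lay below it.

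**Figure D1:**
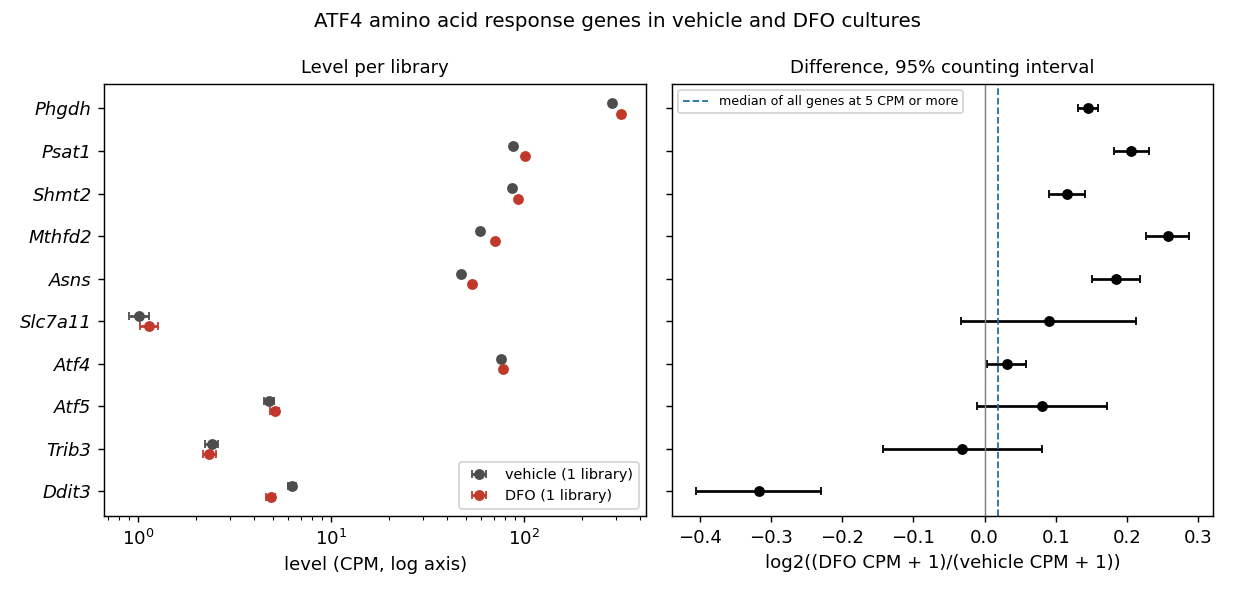
Left, level of each member in the vehicle (grey) and DFO (red) library in CPM on a log axis, with 95% Poisson intervals. Right, the log2 difference with its 95% counting interval and the median of all genes (0.019, dashed). The 4 serine and one-carbon enzymes and Asns lie between 0.12 and 0.26, Ddit3 lies at -0.32, and the intervals of Slc7a11, Atf5 and Trib3 include 0.

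Phgdh, on chromosome 3 (98313171 to 98339969), encodes the first enzyme of serine synthesis from a glycolytic intermediate. It was the most abundant member, at 288 CPM (286 to 289.9) in vehicle and 319 CPM (316 to 321) in DFO, a difference of 0.15 (0.13 to 0.16). GENCODE M21 lists a processed pseudogene, Phgdh-ps1, and the treatment of reads shared with it was not stated in the labels. Psat1 (chromosome 19, 15905123 to 15925059), the aminotransferase of the next step, stood at 88.3 CPM (87.2 to 89.5) and 102 CPM (101 to 103), a difference of 0.21 (0.18 to 0.23). Thus both enzymes that commit carbon to serine were higher in the DFO library, with intervals apart. Shmt2 (chromosome 10, 127517123 to 127522444), which splits serine into glycine and a one-carbon unit inside mitochondria, stood at 86.5 CPM (85.4 to 87.6) and 93.8 CPM (92.7 to 95), a difference of 0.12 (0.091 to 0.14). Mthfd2 (chromosome 6, 83305704 to 83326011), the mitochondrial enzyme that oxidises that unit, stood at 59.2 CPM (58.3 to 60.1) and 70.9 CPM (70 to 71.9). Its difference of 0.26 (0.23 to 0.29) was the highest of the 10, and 1.23% of all genes tested had a higher one.

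Asns and Slc7a11, the 2 members with the motif before their start, stood at very different levels. Asns (chromosome 6, 7675165 to 7693209), asparagine synthetase, stood at 47.5 CPM (46.7 to 48.3) in vehicle and 54.1 CPM (53.3 to 55) in DFO, a difference of 0.18 (0.15 to 0.22). Slc7a11 (chromosome 3, 50364936 to 50499087), the light chain of the cystine importer, was the scarcest member, at 1.02 CPM (0.901 to 1.15) and 1.15 CPM (1.03 to 1.28). Its 266 and 327 molecules gave a difference of 0.09 (-0.033 to 0.21), so a difference was not detectable at this depth.

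Among the stress genes, Atf4 itself (chromosome 15, 80255184 to 80257545) stood at 76.4 CPM (75.3 to 77.4) in vehicle and 78 CPM (77 to 79.1) in DFO. Its difference of 0.031 (0.0036 to 0.058) lay close to the median of 0.019 over all 8886 genes, and 45% of them had a higher one. Atf5 (chromosome 7, 44812256 to 44816658), a related transcription factor also controlled at translation, stood at 4.79 CPM (4.53 to 5.07) and 5.13 CPM (4.87 to 5.4). Trib3 (chromosome 2, 152337425 to 152344060) stood at 2.42 CPM (2.24 to 2.62) and 2.35 CPM (2.17 to 2.53). The intervals of both genes overlapped between the libraries. Ddit3 (chromosome 10, 127290793 to 127296291) was lower in the DFO library, at 6.33 CPM (6.03 to 6.64) against 4.89 CPM (4.63 to 5.15), a difference of -0.32 (-0.4 to -0.23), and 98.4% of all genes tested had a higher one. GENCODE M21 holds a second, overlapping gene model under the same symbol, so part of its counts may have been split. In 1 vehicle cell 21 molecules of Ddit3 were counted. Without the 10 cells richest in Ddit3 from each library, left out after the data were seen, its difference was -0.30, and with a pseudocount of 10 CPM it was -0.13.

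**Figure D2:**
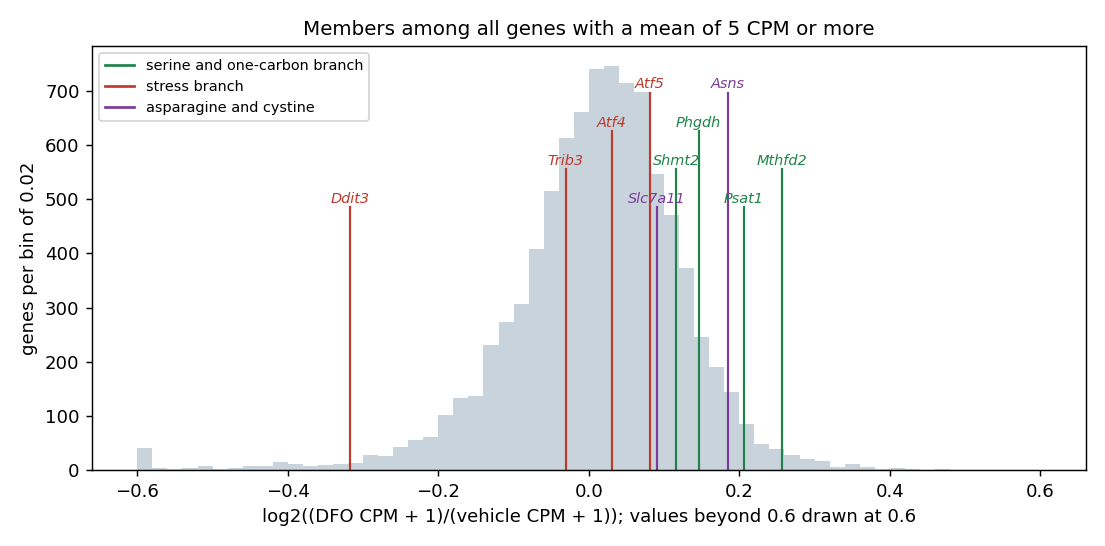
Histogram of the log2 difference of the 8886 genes at 5 CPM or more on average (values beyond 0.6 drawn at 0.6), with the 10 members as lines (green, serine and one-carbon; red, stress; purple, asparagine and cystine). The green lines and Asns lie on the right side, Atf4 and Trib3 near the middle, and Ddit3 on the left tail; Atf5, Trib3 and Slc7a11 are drawn although their mean is below 5 CPM.

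Shares of cells were compared at matched depth. Cells were thinned to 10000 UMIs, which left 8357 vehicle and 9419 DFO cells after 351 and 433 shallower ones were set aside. With vehicle given first, Phgdh was then seen in 89.7% (89 to 90.3) and 93.6% (93.1 to 94.1), Psat1 in 55.9% (54.8 to 56.9) and 61.8% (60.8 to 62.8), and Mthfd2 in 39.4% (38.4 to 40.5) and 45.7% (44.7 to 46.7). Asns was seen in 33.2% (32.2 to 34.2) and 38.9% (37.9 to 39.9), and Shmt2 in 54.5% (53.4 to 55.6) and 59.3% (58.3 to 60.3). Thus all 5 metabolic enzymes were found in a larger share of DFO cells at matched depth. Atf4 was seen in 51.3% (50.2 to 52.4) and 52.3% (51.3 to 53.3), with overlapping intervals. Ddit3 was seen in 6.25% (5.74 to 6.79) and 4.86% (4.44 to 5.32), Atf5 in 4.73% (4.28 to 5.2) and 4.86% (4.44 to 5.32), and Trib3 in 2.49% (2.17 to 2.85) and 2.57% (2.26 to 2.91). Slc7a11 was seen in 0.885% (0.696 to 1.11) and 1.15% (0.942 to 1.38). Without thinning these shares ran from 2.84% for Slc7a11 to 95.1% for Phgdh in vehicle and from 3.06% to 96.1% in DFO. No cell type in these cultures is known to lack these genes, so a background share from free RNA could not be set for them.

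Clustering of both libraries together, with the 10 members left out of the genes used, gave 7 clusters. They are described here and not tested. Cluster 1 was megakaryocyte-like (led by Serpinb2, Cavin2, Tesc, Serpine2, Pf4, Timp3, Samd14, Treml1, Il1b and Nt5e). Cluster 4 was HSC-like (Pdcd1, Sult1a1, Wfdc2, Dlk1, AA467197, Procr, Ctss, Zfp467, Ltb and Acot1), and cluster 5 was erythroid-like (Slc7a8, Lpl, Tspan33, Fgf3, Aqp1, Ces2g, Siglecf, Klf1, Phlda2 and Rapsn). In the HSC-like cluster macrophage or dendritic cell markers had a mean log2 fold over all other cells of 0.71, above the 0.53 of the HSC markers, and Ctss, an immune gene, was among its leading genes. In the erythroid-like cluster mast cell or basophil markers had 0.99 and erythroid markers 0.72. Cluster 0, led by Nusap1 and other mitosis genes, cluster 2, led by Bex6 and Ung, and cluster 3, led by Shisa8 and Gem, stayed unnamed, as did cluster 6. Cells of cluster 6 had a median of 6938 UMIs, and its values are given without reading a direction from them.

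Psat1 and Mthfd2 had their lowest level in HSC-like cells of both libraries, and Shmt2 and Asns had theirs there once cluster 6 was set aside. Mthfd2 stood at 35.7 CPM (33.5 to 38) in HSC-like cells of the vehicle library and at 75.6 CPM (72.7 to 78.6) in cluster 3, the highest. Between them lay clusters 2 and 0 at 49.7 and 50 CPM, with overlapping intervals, and erythroid-like cells at 57.4 CPM. Megakaryocyte-like cells at 73.8 CPM and cluster 6 at 74 CPM had intervals that overlapped that of cluster 3. In the DFO library the range again ran from HSC-like cells, at 46.9 CPM (44.2 to 49.7), to cluster 3, at 90.2 CPM (87.7 to 92.9). Psat1 in HSC-like cells stood at 65.6 CPM (62.5 to 68.7) in vehicle and 81.6 CPM (78.1 to 85.3) in DFO. Asns was highest in megakaryocyte-like cells, at 70 CPM (68.1 to 72) and 77.1 CPM (74.6 to 79.6). Phgdh shared its high point, cluster 3, with Mthfd2 and Shmt2 but differed from them in megakaryocyte-like cells, its low point outside cluster 6, at 200 CPM (196 to 203) in vehicle and 257 CPM (252 to 261) in DFO, against 388 CPM (381 to 395) and 377 CPM (371 to 382) in cluster 3.

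Trib3 stood apart from the other members, with its highest level in HSC-like cells of both libraries. There it had 6.75 CPM (5.79 to 7.81) in vehicle and 7.68 CPM (6.62 to 8.85) in DFO, against 1.93 and 1.84 CPM in all remaining cells, which is 3.49 and 4.16 times as much. On thinned cells it was seen in 7.32% of HSC-like vehicle cells (5.89 to 8.97) and 6.99% of HSC-like DFO cells (5.56 to 8.65). In clusters 0, 1, 2, 3 and 5 the shares lay between 1.22% and 2.05% for vehicle and between 1.49% and 2.49% for DFO. Median depths before thinning were 21620 UMIs in HSC-like cells and 22761 to 34695 UMIs in those 5 clusters. Atf4 did not share this pattern, at 62.5 CPM (59.6 to 65.6) and 63.1 CPM (60 to 66.3) in HSC-like cells, its lowest level among the clusters in each library. Ddit3 was highest in erythroid-like cells of the vehicle library, at 9.92 CPM (8.68 to 11.3), followed by megakaryocyte-like cells at 8.49 CPM (7.82 to 9.2), with overlapping intervals, and lowest in cluster 3, at 3.42 CPM (2.82 to 4.1).

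**Figure D3:**
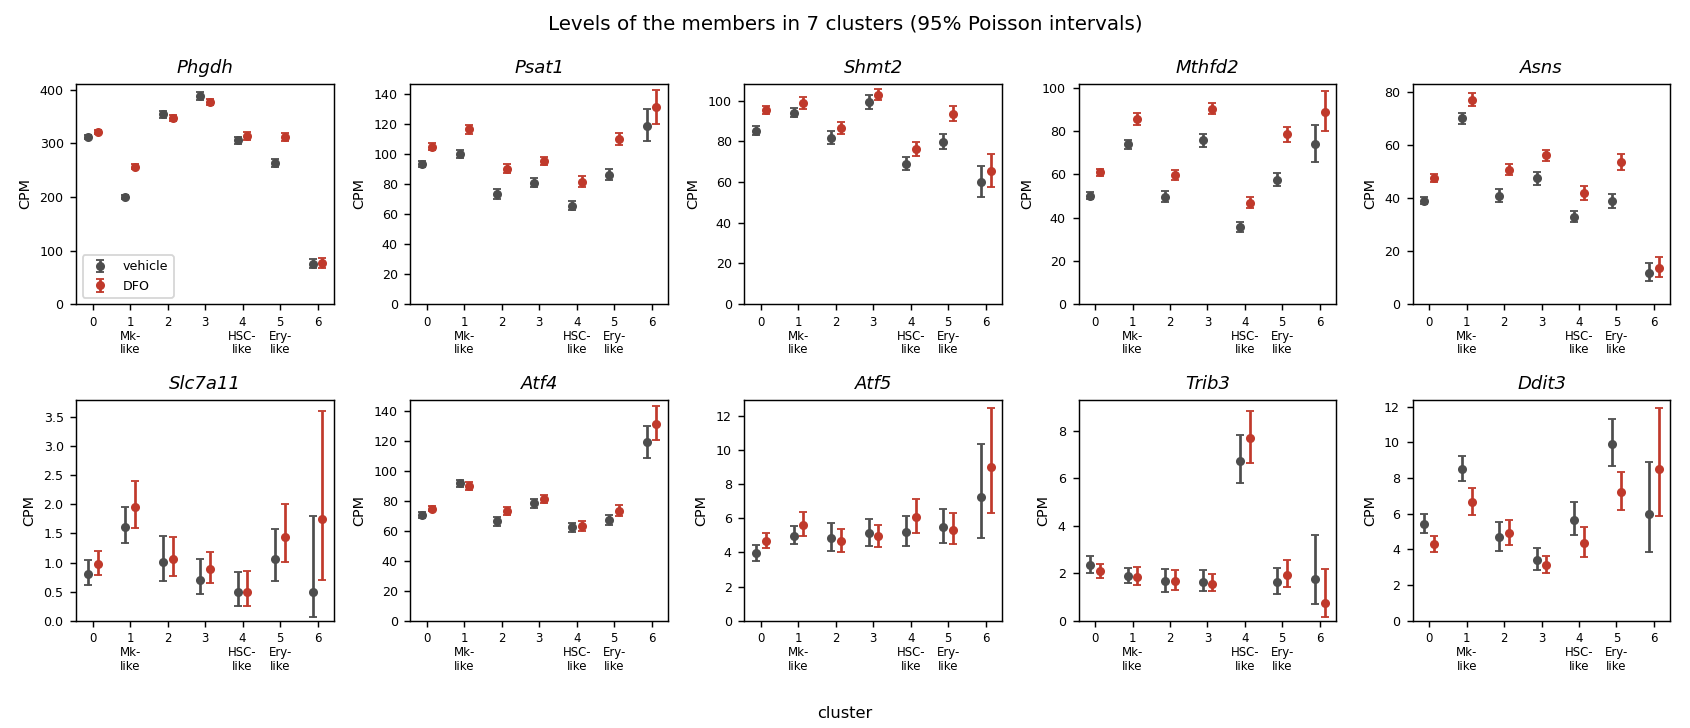
Level in CPM of each member in the 7 clusters, vehicle in grey and DFO in red, with 95% Poisson intervals; each axis starts at 0. Trib3 is high in the HSC-like cluster (6.75 and 7.68 CPM), Phgdh is low in the megakaryocyte-like cluster (200 and 257 CPM), and Mthfd2 is higher in red than in grey in each cluster outside the shallow cluster 6.

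Within the 6 clusters other than cluster 6, Mthfd2 was higher in the DFO library in 6 of 6, with intervals that exclude 0, from 0.21 in megakaryocyte-like cells to 0.44 in erythroid-like cells. Psat1 (0.17 to 0.34) and Asns (0.14 to 0.45) were also higher in 6 of 6, with intervals that exclude 0. In HSC-like cells Mthfd2 differed by 0.38 (0.26 to 0.51), Asns by 0.34 (0.21 to 0.46), Psat1 by 0.31 (0.22 to 0.4) and Shmt2 by 0.14 (0.043 to 0.23). Shmt2 was higher in 6 of 6 (0.049 to 0.23), with intervals that exclude 0 in 5. The sum of the serine and one-carbon branch was higher in 6 of 6, by 0.046 in cluster 3 to 0.28 in erythroid-like cells. The sum of the stress branch was higher in 5 of 6, with intervals that exclude 0 in 2, cluster 0 (0.062, 0.014 to 0.11) and cluster 2 (0.12, 0.048 to 0.2). In megakaryocyte-like cells it differed by -0.043 (-0.094 to 0.0086). In cluster 2 the stress branch thus had the higher value of the pair, beside 0.062 (0.033 to 0.091) for the serine and one-carbon branch, with overlapping intervals.

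Phgdh was uneven across clusters. It differed by 0.36 (0.33 to 0.39) in megakaryocyte-like and 0.24 (0.19 to 0.29) in erythroid-like cells, by 0.036 (-0.0088 to 0.081) in HSC-like cells and by 0.043 (0.018 to 0.068) in cluster 0. In cluster 2 it differed by -0.029 (-0.065 to 0.0075) and in cluster 3 by -0.043 (-0.075 to -0.011). Megakaryocyte-like cells made up 20.5% of the vehicle and 14% of the DFO library, and without them, an alternative chosen after the data were seen, the difference of Phgdh over all remaining cells was 0.051 in place of 0.15. With both libraries weighted to the same cluster shares it was 0.09. Without the megakaryocyte-like cells Mthfd2 differed by 0.33, Asns by 0.32, Psat1 by 0.23, Shmt2 by 0.15 and Atf4 by 0.094. Ddit3 differed by -0.25 without these cells and by -0.24 with equal cluster shares, in place of -0.32.

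**Figure D4:**
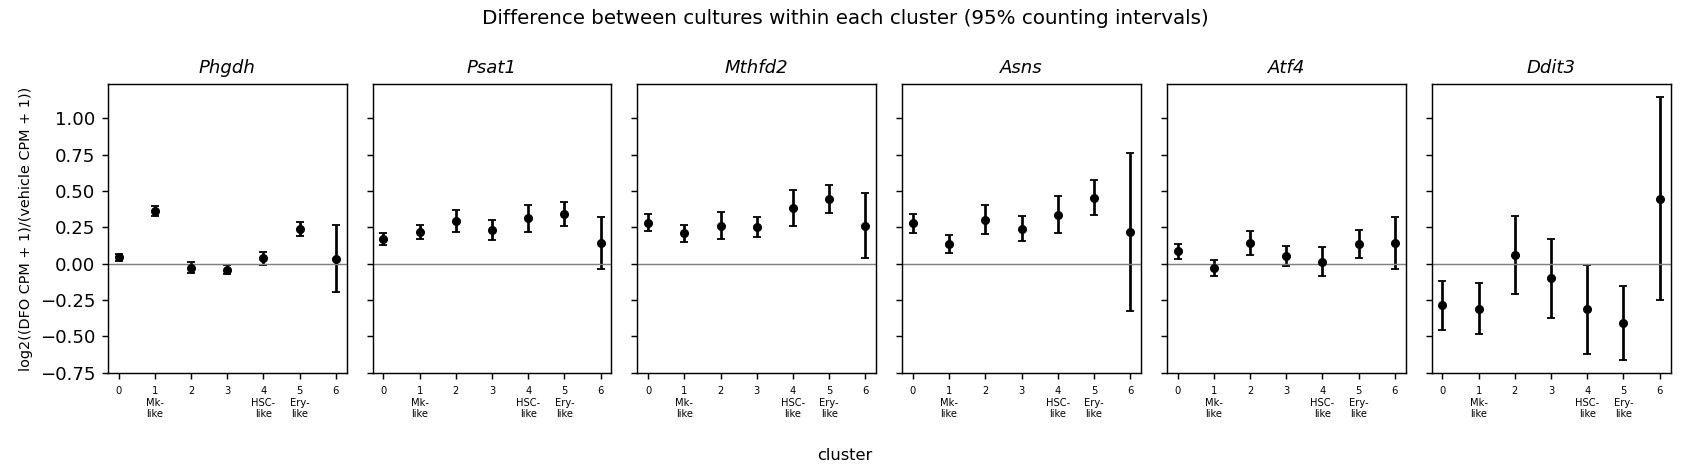
Log2 difference between the cultures within each of the 7 clusters for 6 members, with 95% counting intervals. Outside the shallow cluster 6, Psat1, Mthfd2 and Asns lie above 0 in each cluster, Phgdh lies above 0.2 in the megakaryocyte-like (0.36) and erythroid-like (0.24) clusters, and Ddit3 lies below 0 in 5 of 6.

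Phgdh also varied with the megakaryocyte transcript content of single cells. Thinned cells were grouped by their molecules of Pf4, the platelet factor 4 transcript, in bins chosen after the data had been seen. Phgdh stood at 354 CPM in vehicle cells without Pf4, 318 CPM with 1 to 4, 243 CPM with 5 to 19 and 174 CPM with 20 or more molecules, and in DFO cells the levels were 349, 321, 257 and 215 CPM. Its difference was -0.023 (-0.066 to 0.019), 0.012 (-0.025 to 0.05), 0.081 (0.018 to 0.14) and 0.31 (0.21 to 0.4) in these bins. Cells with 20 or more Pf4 molecules were 16.9% of vehicle and 6.05% of DFO cells. The Pf4 content of the libraries within this open-ended bin, or within the megakaryocyte-like cluster, was not compared. Unequal content cannot be told apart from the difference of Phgdh there. Mthfd2 differed by 0.36, 0.26, 0.37 and 0.28 in the same order, Asns by 0.27, 0.31, 0.4 and 0.25, and Psat1 by 0.28, 0.28, 0.33 and 0.22, so these 3 were higher in DFO whatever the Pf4 count. Ddit3 differed by -0.06 (-0.38 to 0.26) and -0.03 (-0.29 to 0.23) in the lower pair of bins, and by -0.57 (-0.91 to -0.24) and -0.54 (-1.04 to -0.062) in the upper pair. Its level in these bins was 4.65, 5.07, 9.79 and 9.41 CPM in vehicle cells and 4.42, 4.95, 6.25 and 6.14 CPM in DFO cells. The part of unequal Pf4 content in the lower Ddit3 level of the whole DFO library was not tested. The 20 or more bin held 133 vehicle and 35 DFO molecules of Ddit3.

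Outside cluster 6, Ddit3 was lower in the DFO library in 5 of 6 clusters, with intervals that exclude 0 in 4. It went from 8.49 to 6.65 CPM in megakaryocyte-like cells, from 9.92 to 7.22 CPM in erythroid-like cells, from 5.43 to 4.28 CPM in cluster 0 and from 5.65 to 4.35 CPM in HSC-like cells. Trib3 had intervals that include 0 in all 7 clusters. Atf4 differed by 0.14 (0.061 to 0.22) in cluster 2, 0.13 (0.037 to 0.23) in erythroid-like cells and 0.085 (0.033 to 0.14) in cluster 0, and its interval included 0 in clusters 1, 3 and 4.

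Cell cycle phase was scored on thinned cells from lists that hold no member. For the summed serine and one-carbon branch it separated the levels more than it did the differences. That sum stood at 367 CPM in G1, 541 CPM in S and 528 CPM in G2/M of the vehicle library. Of the thinned cells, 62.2% in vehicle and 63% in DFO were scored as G2/M. The score is relative and no phase was measured, so these groups may differ from true phases. Cells scored as G1 were few, 678 vehicle and 483 DFO cells (8.11% and 5.13%). In them Mthfd2 stood at 20.9 CPM (18.4 to 23.6) and 27.9 CPM (24.5 to 31.6), against 62.1 and 76.1 CPM in cells scored as S and 60.8 and 70.6 CPM in cells scored as G2/M. Trib3 again had the opposite order, with 8.16 CPM (6.64 to 9.91) and 7.03 CPM (5.38 to 9.03) in G1, 2.4 and 2.8 CPM in S, and 2.03 and 1.94 CPM in G2/M. Atf5 and Ddit3 were also highest in G1 in both libraries, by smaller margins. Atf5 stood at 6.22 CPM (4.91 to 7.77) and 6.45 CPM (4.88 to 8.38) in G1, against 4.5 CPM (4.19 to 4.82) and 4.99 CPM (4.69 to 5.32) in G2/M. Ddit3 stood at 7.59 and 6.34 CPM in G1, against 6.41 and 4.74 CPM in G2/M, with overlapping intervals. The HSC-like cluster held the largest share of G1 cells, 28.1% of its thinned cells, so the cluster and the phase hold overlapping cells. The difference of the summed serine and one-carbon branch was 0.16 in G1 (0.096 to 0.22), 0.15 in S (0.13 to 0.17) and 0.16 in G2/M (0.15 to 0.17). Asns was uneven, with 0.52 (0.28 to 0.76) in G1, 0.2 (0.13 to 0.26) in S and 0.15 (0.11 to 0.19) in G2/M. Mthfd2 differed by 0.4 (0.15 to 0.65), 0.29 (0.23 to 0.35) and 0.21 (0.18 to 0.25) in the same order. The intervals of Mthfd2 overlapped between phases, as did those of Phgdh, Psat1 and Shmt2. Ddit3 differed by -0.37 (-0.47 to -0.26) in G2/M, -0.2 (-0.38 to -0.029) in S and -0.23 (-0.66 to 0.21) in G1.

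Across single cells the correlations between members were low. Over thinned cells the highest correlation of any pair was that of Mthfd2 with Asns, with Pearson's r of 0.13 over 8357 vehicle cells and 0.081 over 9419 DFO cells. The median over pairs within the serine and one-carbon branch was 0.074 in vehicle and 0.06 in DFO. Between that branch and the stress branch it was -0.0057 and -0.0021. Over all cells without thinning, the median within the serine and one-carbon branch was 0.16 in vehicle and 0.14 in DFO. The highest pair there reached 0.27 and 0.2. At counts this sparse, where a thinned vehicle cell holds 0.55 molecules of Mthfd2 and 0.067 of Ddit3 on average, such values are no finding, and the cells share library and culture. Cell-to-cell dispersion, the variance over the mean of thinned counts, was 1.44 for Phgdh in vehicle and 1.24 in DFO. It was 1.2 in both for Mthfd2, and 1.09 and 1.06 for Atf4. Over all 8886 genes the medians were 1.03 in both libraries and the 90th percentiles 1.19 and 1.16. Those genes were not matched to the members by level, so the values do not rank the members among genes of like abundance.

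The genes whose counts across thinned cells were most like the summed serine and one-carbon branch, among 5484 others at 20 CPM or more, were Ncl (r of 0.31 in vehicle and 0.29 in DFO), Hspd1 (0.3 and 0.29), Hsp90aa1 (0.27 in both), Npm1 (0.27 in both) and Ranbp1 (0.28 and 0.25). For the summed stress branch the nearest genes were Serpina3g, Eif2s2, Ncl, Id1 and Odc1, with a mean r over both libraries of at most 0.08. The median over all genes compared was 0.0019 for the first branch and 0.0031 for the second. The 5 genes nearest the first branch were abundant, from 883 CPM for Ranbp1 to 4016 CPM for Npm1 in vehicle. Genes were not matched by level and sparse counts hold r near 0, so the ranking favours abundant genes.

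Lists of further genes, from which the members were left out, held 128 genes at 5 CPM or more on average. Of these, 39 were higher in the DFO library by 0.1 or more (30.5%, beside 19.2% of all genes). Lower by 0.1 or more were 14 of the 128, a smaller share than the 14% of all genes. The list of other serine, one-carbon and proline genes had 18 such genes out of 22 in the tables, 10 of them higher and 1 lower, with a median of 0.11. Its highest were Shmt1, the cytosolic form of Shmt2 (47.1 and 54.9 CPM, 0.22), Slc25a32, the mitochondrial folate carrier (11.9 and 13.8 CPM, 0.2), and Psph, which completes serine synthesis after Psat1 (96.5 and 110.3 CPM, 0.19). Its lowest was Aldh1l1, which burns cytosolic one-carbon units (7.64 and 5.92 CPM, -0.32). With Psph, all 3 enzymes of serine synthesis were thus higher in the DFO library.

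Amino acid transporters had a median of 0.1, with 6 of 10 higher and none lower by 0.1. For the lists of this paragraph the shares over all genes were 19.2% higher and 14% lower. Slc7a5, the large neutral amino acid carrier, stood at 51.3 and 60.8 CPM (0.24), the glutamine carrier Slc1a5 at 74 and 84.2 CPM (0.18) and Slc38a2 at 101 and 113 CPM (0.16), while Slc43a1 stood at 12.7 and 11.8 CPM (-0.09). Slc3a2, the heavy chain that pairs with Slc7a11 and Slc7a5, stood at 178 and 191 CPM (0.1). Of 20 cytosolic aminoacyl-tRNA synthetases, which charge tRNAs with amino acids, 6 were higher and 2 lower, with a median of 0.081. They ranged from Nars (104 and 119 CPM, 0.18), Farsa (0.15) and Hars (0.13) to Vars (-0.1) and Qars (48.3 and 43.9 CPM, -0.13). Of 7 genes of cystathionine and glutathione metabolism 3 were higher, among them glutathione reductase Gsr (102 and 119 CPM, 0.22), and none was lower, with a median of 0.065.

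The list of other stress-induced ATF4 targets had a median of -0.081, with 2 of 18 genes higher and 7 lower, beside 19.2% and 14% of all genes. The balance of its counts rested on the floor of 5 CPM: at 20 CPM 2 of 10 genes were higher and 2 lower (median -0.064), and at 1 CPM 5 of 23 were higher and 8 lower (median -0.055). Lowest were Vldlr, a lipoprotein receptor (18.4 and 14.8 CPM, -0.3), Vegfa (7.7 and 6.24 CPM, -0.26) and Ndrg1 (34.6 and 29.2 CPM, -0.24). Some genes of this list, Vegfa and Ndrg1 among them, also answer to hypoxia. Its higher pair was Cebpb, a dimer partner of ATF4 (62.5 and 76.2 CPM, 0.28), and Nars, which is on the synthetase list too. Among 17 genes that set or read eIF2 phosphorylation the median was 0.0002, with 4 higher and 1 lower. The heme-sensing kinase Eif2ak1 stood at 23.3 and 22.3 CPM (-0.06, -0.11 to -0.011) and the amino acid sensor Eif2ak4 at 14 and 13.4 CPM (-0.06, -0.12 to 0.0015). Ppp1r15a, the stress-induced phosphatase subunit that reverses eIF2 phosphorylation, stood at 12.8 and 11 CPM (-0.2, -0.27 to -0.14). Oma1, a mitochondrial protease that can start this response, stood at 20.8 and 23.2 CPM (0.15, 0.1 to 0.2).

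**Figure D5:**
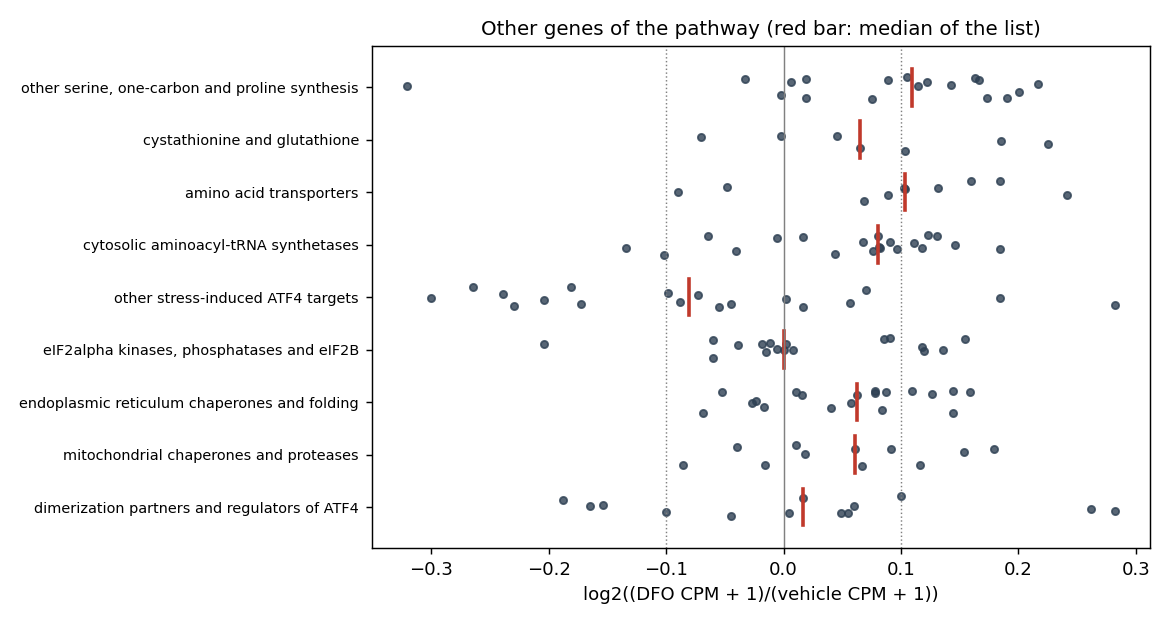
Log2 difference of each further gene with a mean of 5 CPM or more in 9 lists (points, spread vertically only to be seen), with the list's median as a red bar and dotted lines at 0.1 on either side of 0. The serine and transporter lists have medians of 0.11 and 0.1, and the stress-induced list has a median of -0.081.

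Genes of protein folding had medians between those of the serine and the stress-induced lists. Their counts, and those of the dimer partners, stand beside 19.2% of all genes higher and 14% lower by 0.1. Of 19 chaperones and folding factors of the endoplasmic reticulum 5 were higher and none lower, with a median of 0.063, from Xbp1 (106 and 118 CPM, 0.16) to Dnajc3 (100.5 and 95.8 CPM, -0.069). Of 11 mitochondrial chaperones and proteases 3 were higher and none lower, with a median of 0.061. Hspd1, the mitochondrial chaperonin, stood at 903 and 1023 CPM (0.18), and Lonp1 at 46 and 43.3 CPM (-0.086). Of 13 dimer partners and regulators of ATF4, 3 were higher and 4 lower, with a median of 0.017, from Cebpb and Fosl1 (5.89 and 7.26 CPM, 0.26) to Junb (48.3 and 43 CPM, -0.16) and Cebpa (8.06 and 6.95 CPM, -0.19). Mitochondrially encoded transcripts had a median share of 3.88% of UMIs in vehicle cells and 4.4% in DFO cells, and megakaryocyte markers were lower in the DFO library as given above. Their part in these list values was not tested.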

How the data were processed

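The values that the authors deposited, 1 table per library, are natural log values per gene and cell. Per the submitters' processing notes, FastQC 0.11.9, Trim Galore 0.6.5, Cell Ranger 3.0.2 and mm10 were used, while no source names the annotation or the filter on cells. Every nonzero value, back-transformed, was a whole multiple of its cell's smallest step within 0.05, which gave molecules per cell. All deposited cells were used. Molecules were summed per library and scaled to CPM, with a pseudocount of 1. The code that computes the differences was checked on simulated counts with known fold changes, which is no test of the differences themselves. Clustering used scanpy 1.11.5 and leidenalg 0.10.2 (2000 variable genes without members, phase, mitochondrial and ribosomal protein genes, 30 components, 15 neighbours, resolution 0.5) in Python 3.11.15. A cluster was named with at least 3 detected markers and 2 or more of them among its 10 leading genes, a rule set after the data were seen. Scrublet called 3 vehicle and 2 DFO cells doublets (0.0345% and 0.0203%), so its automatic call has not worked here, and doublets stayed in. Cells with both Xist and Y-linked transcripts, which are likely doublets, numbered 211 in vehicle and 335 in DFO. An alternative left out these cells and the highest 8% of Scrublet scores, 820 vehicle and 925 DFO cells in all. Named genes were the members, up to 3 highest and 3 lowest genes per list, the 5 genes most like each branch and cluster leaders. Members and lists were chosen with earlier results of these data known.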

Additional observations from a re-analysis of the deposited data

Results flagged for a closer look

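Phgdh differed between the cultures in opposite directions in 2 clusters, with counting intervals that exclude 0 in each. It was higher in the DFO library by 0.36 in the megakaryocyte-like cluster 1 and differed by -0.043 in cluster 3, a gap of 0.40 on the log2 scale. The difference between the clusters was not tested, since each cluster has 1 library per group.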

How the results depend on the processing

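The summed serine and one-carbon branch was higher in the DFO library under all 14 alternatives, from 0.13 to 0.17. It was 0.15 when scaled by the median of ratios and also 0.15 by the trimmed mean of log ratios, 0.14 with equal cluster shares and 0.13 without the megakaryocyte-like cluster, the last chosen after the data were seen. The summed stress branch took both signs, with -0.024 in male cells and 0.066 without the megakaryocyte-like cluster. At a threshold of 0.25 in place of 0.1, 1 member was counted higher, beside 1.4% of all genes, in place of 5, beside 19.2%. The other settings gave 4 to 6 members. The share of all genes higher by 0.1 ran from 11.2% with a pseudocount of 10 CPM to 20.85% in male cells. These counts therefore stand beside different backgrounds. The serine and one-carbon branch was lower in G1 than in other cells, by -0.58 on thinned and -0.53 on unthinned counts. The median correlation between branches was 0.0014 unthinned, -0.0099 within G1 and 0.0021 within S. The cause of these moves was not tested. Trib3 ranged from -0.086 to 0.038, so it has no direction. Ddit3 stayed between -0.39 and -0.13. No paired analysis was possible because each group has 1 library. With shallow cells left in, the serine and one-carbon branch was higher in 4 of 4 clusters at resolution 0.25 and in 14 of 14 at resolution 1. Precision is limited by the number of libraries, not by depth, except for Slc7a11, Trib3 and Atf5.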

Other observations

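The pool held cells of both sexes, called from Xist and 4 Y-linked transcripts, which gave 4751 female and 2767 male vehicle cells and 5251 female and 3266 male DFO cells. The members had close levels in both. Mthfd2 went from 58.7 to 70.1 CPM in female cells (0.25) and from 59.1 to 71.7 CPM in male cells (0.27). Asns differed by 0.19 and 0.18, Psat1 by 0.21 in both, and Ddit3 by -0.27 and -0.39. Female and male cells were cultured and captured together, so they are no replicates of the treatment.

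Most cells held no molecule of Ddit3 or Trib3. After thinning, 91.4% of vehicle and 92.8% of DFO cells held neither, and 38 vehicle and 42 DFO cells held 2 molecules of the pair in sum. Phgdh averaged 2.9 molecules per thinned vehicle cell with neither transcript and 2.55 with 1 molecule of the pair, and 3.15 and 3.11 in DFO cells. Mthfd2 averaged 0.55 and 0.543 in vehicle and 0.677 and 0.629 in DFO cells.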
